A study of Homo sapiens with 18 samples.

Results

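The proteins that hold the elongation kinase P-TEFb in its inactive 7SK complex, and those that use it to drive RNA polymerase II, were followed through 9 genes in cultured cells. The labels give them as A549, an established line from a human lung adenocarcinoma. The genes were selected by name: HEXIM1, HEXIM2, LARP7 and MEPCE for the 7SK particle, CDK9, CCNT1 and CCNT2 for P-TEFb, and AFF4 and ELL2 for the super elongation complex. They are 9 of 36576 genes in the deposited expression table. Their m6A peaks number 6 of 14902 in the deposited table for BPQDs and 8 of 12886 in that for TiO2. The groups were cells given 10 mg/L BPQDs (black phosphorus quantum dots) for 24 h, cells given 100 mg/L TiO2 (titanium dioxide) for 24 h, and untreated cells, with 3 input RNA-seq libraries each. The study also has 3 libraries per group from immunoprecipitation of RNA carrying m6A, a methyl group placed on adenosines inside transcripts. The doses of the materials differ, so BPQDs and TiO2 are compared only as given. The series asks whether RNA methylation in these cells changed with nanomaterial exposure. The labels do not say whether the replicates are separate cultures. Every p-value for expression and for ratios below therefore reflects the scatter among these libraries alone, and that scatter may be technical. Those of m6A peaks are the authors' own, and the scatter behind them is not given in the sources used here.

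Soon after it starts, RNA polymerase II pauses near the promoter, and P-TEFb, a pair of the kinase CDK9 and a cyclin T, releases it by phosphorylating the polymerase and the factors that hold it. Much of the P-TEFb of a cell is stored in an inactive form on 7SK, a short noncoding RNA, where a HEXIM protein blocks the kinase, LARP7 protects the 3′ end of the RNA and MEPCE caps its 5′ end. P-TEFb that leaves this store can join the super elongation complex, in which AFF4 is the scaffold and ELL2 speeds the polymerase.

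Expression was read as FPKM, the authors' fragment counts scaled to transcript length and library size, so that levels can be set side by side between genes. Sums of FPKM over all genes ran from 212891 to 222818 in the 9 libraries, and the correlation of log2 values was 0.980 to 0.983 within groups and 0.966 to 0.975 between them. Sequencing depth is unknown, since the files used hold no counts, and precision rests on the 3 libraries of a group. In bulk RNA, fewer cells that make a transcript and less of it per cell cannot be told apart. Of 6 epithelial markers 5 averaged at least 1 FPKM in every group, led by the keratins KRT18, KRT8 and KRT7, and their summed level was 855 to 875 FPKM in BPQD cells, 956 to 1051 FPKM in TiO2 cells and 1157 to 1244 FPKM in untreated cells. None of the alveolar genes SFTPB, SFTPC and NKX2-1 reached 1 FPKM in any group. Of 3 genes that A549 cells are known to express strongly, AKR1B10, AKR1C1 and ALDH1A1, the summed level was 0.874 to 0.885 FPKM in BPQD cells, 1.52 to 1.64 FPKM in TiO2 cells and 1.79 to 2.20 FPKM in untreated cells. CDKN2A, which A549 cells are known to have lost, averaged 19.5 FPKM in BPQD cells, 20.9 FPKM in TiO2 cells and 24.2 FPKM in untreated cells. The label is thus not borne out by these markers, and the cells are called only by their treatment. The 4 fibroblast markers, of which COL1A1 and PDGFRB passed 1 FPKM, summed to 4.15 to 4.64 FPKM in BPQD cells, 4.04 to 4.77 FPKM in TiO2 cells and 7.15 to 7.47 FPKM in untreated cells. The endothelial pair, nearly all CDH5, summed to 1.17 to 1.32 FPKM in BPQD cells, 2.09 to 3.83 FPKM in TiO2 cells and 3.003 to 3.54 FPKM in untreated cells. The leukocyte pair, nearly all CD68 with PTPRC near 0, summed to 11.5 to 12.4 FPKM in BPQD cells, 17.4 to 22.9 FPKM in TiO2 cells and 10.8 to 12.8 FPKM in untreated cells. The part of these marker shifts in the results below was not tested.

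In BPQD cells 3 of the 9 genes fell and 2 rose. In FPKM + 1, the value tested, HEXIM1, MEPCE and CDK9 each dropped to about 0.71 to 0.73 times their untreated level. On that scale CCNT1 rose 1.26-fold and ELL2 rose 1.11-fold. In TiO2 cells MEPCE and CDK9 fell and ELL2 rose, and HEXIM1 and CCNT1 did not pass the test. A gene was called at a Benjamini-Hochberg adjusted p under 0.05 from limma on log2(FPKM + 1), adjusted over the 12224 genes that averaged 1 FPKM or more, and all 9 genes were among those tested. Values of genes are means ± SD, and log2 fold changes are ± SE, with n = 3 libraries per group throughout.

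**Figure D1:**
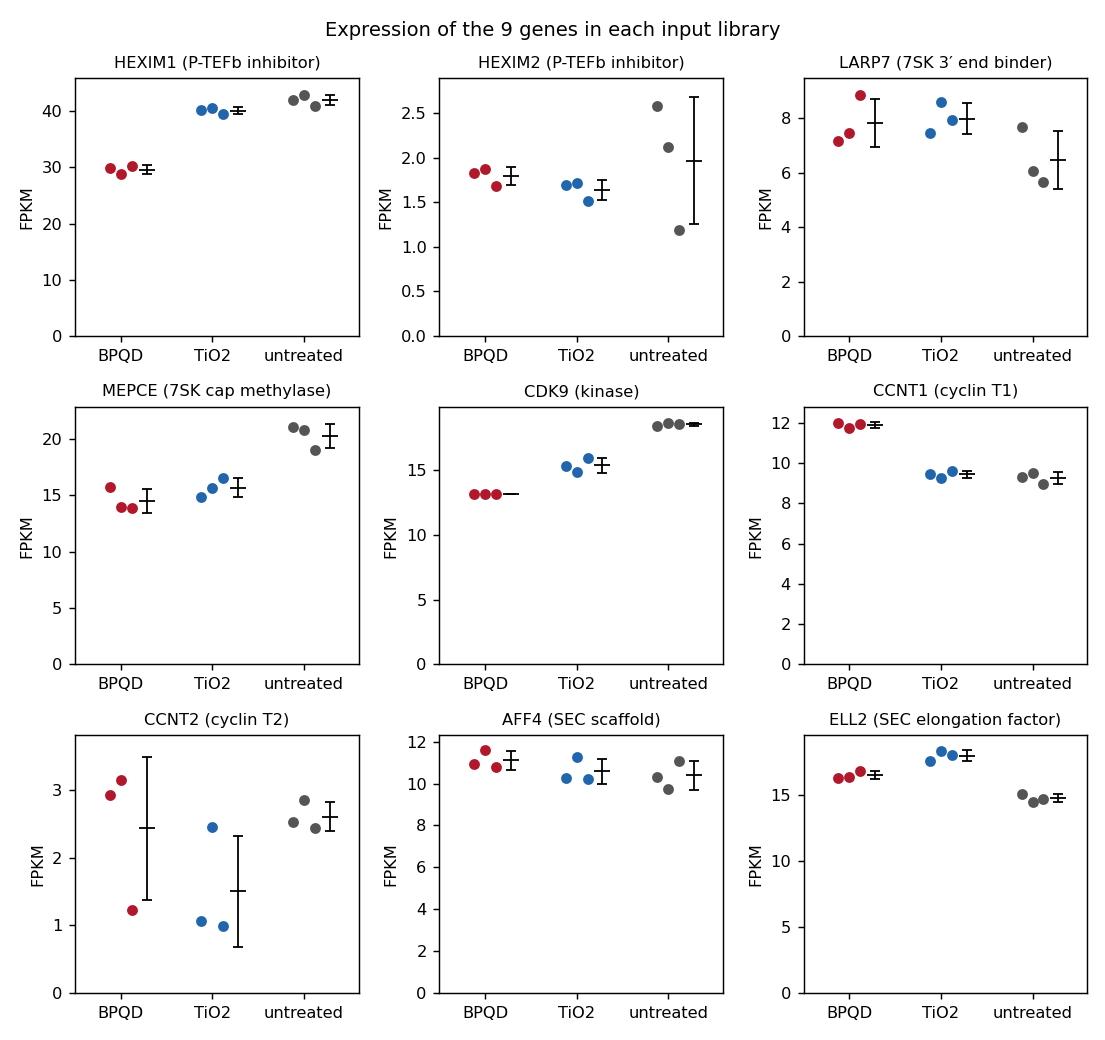
FPKM of each of the 9 genes in BPQD, TiO2 and untreated cells; points are the 3 libraries of a group and the bar beside them is the mean ± SD. HEXIM1 is low only in the BPQD libraries, CDK9 is lowest in BPQD and lies between in TiO2, and CCNT2 differs widely among replicates.

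These shares have to be read against the whole table. Under BPQDs 20.6% of all tested genes were called higher and 23.4% lower, so 2 and 3 of 9 are near the background. Under TiO2 17.3% of tested genes were called higher and 20.5% lower, against 1 and 2 of the 9. BPQD and untreated libraries did not overlap in 5 of the 9 genes, and in 55.6% of all tested genes. TiO2 and untreated libraries did not overlap in 4 of the 9, and in 51.7% of tested genes. The median log2 fold change of the 9 was -0.06 under BPQDs and -0.06 under TiO2, beside -0.01 and -0.02 over all tested genes. The 2 comparisons with untreated cells share their 3 untreated libraries.

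HEXIM1 (ENSG00000186834; chromosome 17, 45148502 to 45152101), the main inhibitor of CDK9 in the 7SK complex, was the most abundant of the 9 in every group. It had 29.8, 28.8 and 30.2 FPKM in BPQD cells, 40.2, 40.6 and 39.5 FPKM in TiO2 cells, and 42.0, 42.9 and 41.0 FPKM in untreated cells. All BPQD libraries lay far below the others, and the TiO2 libraries lay just under the untreated ones without overlap. HEXIM1 fell in BPQD cells (log2 fold change -0.49 ± 0.03, adjusted p = 1.37e-05). The TiO2 value was -0.06 ± 0.03 and did not pass the test (adjusted p = 0.0988), although it did with quantile normalization (-0.09, adjusted p = 0.0313). Set directly against TiO2 cells, BPQD cells had a HEXIM1 value lower by -0.43 ± 0.03 on the log2 scale (adjusted p = 2.55e-05).

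HEXIM2 (ENSG00000168517; chromosome 17, 45160700 to 45170040) is the paralog that can replace HEXIM1, and its gene lies 8598 bases beyond the end of HEXIM1. It was expressed at a small part of the HEXIM1 level, with 1.83, 1.88 and 1.68 FPKM in BPQD cells, 1.70, 1.71 and 1.51 FPKM in TiO2 cells, and 2.59, 2.12 and 1.19 FPKM in untreated cells. The untreated libraries spread over a range that takes in all the others. The log2 fold changes were -0.06 ± 0.16 under BPQDs (adjusted p = 0.804) and -0.14 ± 0.16 under TiO2 (adjusted p = 0.539). Without untreated replicate 3, the lowest library, both passed the test (-0.26, adjusted p = 0.0324, and -0.34, adjusted p = 0.0144). Without untreated replicate 1, the highest library, both turned positive and did not pass (HEXIM2 at 0.10 under BPQDs, adjusted p = 0.630, and 0.01 under TiO2, adjusted p = 0.957). An antisense gene listed as AC138150 (ENSG00000267288) overlaps 1241 bases of HEXIM2 and averaged 4.33 FPKM, more than HEXIM2 itself, and whether the libraries kept strand is not given in the sources used here, so reads of the pair may be mixed.

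MEPCE (ENSG00000146834; chromosome 7, 100428790 to 100434118), the enzyme that puts a methyl group on the 5′ phosphate of 7SK, fell under both materials. It had 15.8, 14.0 and 13.9 FPKM in BPQD cells, 14.8, 15.7 and 16.5 FPKM in TiO2 cells, and 21.0, 20.8 and 19.0 FPKM in untreated cells. Every exposed library lay below every untreated one, and those of the materials overlapped each other. The log2 fold change was -0.46 ± 0.06 under BPQDs (adjusted p = 0.000841) and -0.35 ± 0.06 under TiO2 (adjusted p = 0.00374). The difference between BPQD and TiO2 cells was -0.10 ± 0.06 and did not pass the test (adjusted p = 0.233).

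LARP7 (ENSG00000174720; chromosome 4, 112637107 to 112657592), which binds the 3′ tail of 7SK and keeps the RNA stable, did not pass the test in either comparison. It had 7.18, 7.46 and 8.84 FPKM in BPQD cells, 7.45, 8.59 and 7.92 FPKM in TiO2 cells, and 7.67, 6.05 and 5.67 FPKM in untreated cells. Untreated replicate 1 lay among the exposed libraries, while the other untreated libraries lay below them. The log2 fold changes were 0.25 ± 0.11 under BPQDs (adjusted p = 0.111) and 0.28 ± 0.11 under TiO2 (adjusted p = 0.0899). Without untreated replicate 1 they were 0.36 (adjusted p = 0.0210) and 0.39 (adjusted p = 0.0189). Of the 4 proteins of the 7SK particle, 2 fell and none rose under BPQDs, and 1 fell and none rose under TiO2, where 23.4% and 20.5% of all tested genes were called lower.

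The RNA that these proteins bind was far lower in exposed cells. RN7SK (ENSG00000283293; chromosome 6, 52995621 to 52995948) had 3.85, 3.35 and 4.05 FPKM in BPQD cells, 9.71, 3.74 and 7.51 FPKM in TiO2 cells, and 38.4, 41.3 and 32.3 FPKM in untreated cells. Its log2 fold change was -3.01 ± 0.27 under BPQDs (adjusted p = 0.000112) and -2.34 ± 0.27 under TiO2 (adjusted p = 0.000467). The BPQD and TiO2 libraries overlapped, and their difference of -0.67 ± 0.27 did not pass the test (adjusted p = 0.0874), though it did without TiO2 replicate 2 (-1.01, adjusted p = 0.00224). 7SK carries no poly(A) tail, and how RNA was selected for the libraries is not given in the sources used here.

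HEXIM1 and MEPCE both hold a TATA box in the core of a listed promoter, and these stretches are shown because no other member with a listed promoter held those letters. The stretches below are from RefSeq (GRCh38.p14), of which 8 of the 9 genes, all but ELL2, have at least 1 window of 300 bases, with 250 before and 50 after a start site. The first pair gives bases 120 to 1 before the start on the plus strand (HEXIM1 at chr17:45148355-45148474, MEPCE at chr7:100428670-100428789), with the box TATATAA in capitals.

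HEXIM1: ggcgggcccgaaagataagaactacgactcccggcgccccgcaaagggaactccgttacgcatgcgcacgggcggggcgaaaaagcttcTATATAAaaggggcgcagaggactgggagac

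MEPCE: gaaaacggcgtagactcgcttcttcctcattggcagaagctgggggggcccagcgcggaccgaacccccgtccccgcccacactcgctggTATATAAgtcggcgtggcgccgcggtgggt

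The box begins 31 bases before the HEXIM1 start and 30 bases before the MEPCE start. For comparison, the stretch from 45 to 16 bases before the start, where such a box would lie, reads as follows in the genes of the kinase and its main cyclin (CDK9 at chr9:127785989-127786018, plus strand, and CCNT1 at chr12:48716723-48716752, minus strand).

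CDK9: gcgggcggaagaggcggggtcggcgccgcg

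CCNT1: cagcggatgtgggtcgcctcttaggtgacg

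Searched on both strands, TATATAA occurs in 2.57% of all 35116 promoter windows, and on the strand of the gene, beginning 35 to 25 bases before the start, in 0.567% of them. Of the 13 windows of the 8 members it was found in 1 each of HEXIM1 and MEPCE, and the windows of MEPCE at later start sites do not hold it. Of this pair both fell under BPQDs and only MEPCE was called lower under TiO2, and CDK9, whose windows do not hold these letters, fell under both. A link between the box and these changes was not tested.

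CDK9 (ENSG00000136807; chromosome 9, 127785679 to 127790787), the catalytic subunit of P-TEFb, fell under both materials and further under BPQDs. It had 13.2, 13.1 and 13.2 FPKM in BPQD cells, 15.3, 14.9 and 15.99 FPKM in TiO2 cells, and 18.4, 18.7 and 18.6 FPKM in untreated cells. The 3 groups did not overlap at all, and the BPQD libraries agreed within 0.175% (SD as a share of the mean). The log2 fold change was -0.46 ± 0.03 under BPQDs (adjusted p = 2.10e-05) and -0.26 ± 0.03 under TiO2 (adjusted p = 0.000384). BPQD cells were also lower than TiO2 cells (-0.21 ± 0.03, adjusted p = 0.000920).

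CCNT1 (ENSG00000129315; chromosome 12, 48688458 to 48716998), cyclin T1, the main partner of CDK9, moved the other way. It had 11.99, 11.7 and 11.9 FPKM in BPQD cells, 9.44, 9.25 and 9.61 FPKM in TiO2 cells, and 9.30, 9.51 and 8.93 FPKM in untreated cells. The BPQD libraries stood above all others, and TiO2 and untreated libraries overlapped. CCNT1 rose under BPQDs (0.33 ± 0.03, adjusted p = 0.000114), had a value of 0.03 ± 0.03 under TiO2 (adjusted p = 0.529), and was higher in BPQD than in TiO2 cells (0.30 ± 0.03, adjusted p = 0.000206).

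CCNT2 (ENSG00000082258; chromosome 2, 134918235 to 134959342), the alternative cyclin T2, had 2.93, 3.16 and 1.23 FPKM in BPQD cells, 1.06, 2.46 and 0.997 FPKM in TiO2 cells, and 2.53, 2.86 and 2.45 FPKM in untreated cells. The exposed libraries fell into a higher and a lower level within each group, with an SD of 43.3% of the mean under BPQDs and 54.8% under TiO2, against 8.37% in untreated cells. No difference passed the test: the log2 fold changes were -0.12 ± 0.28 under BPQDs (adjusted p = 0.757) and -0.57 ± 0.28 under TiO2 (adjusted p = 0.154), and the TiO2 value was -0.83 without TiO2 replicate 2 (adjusted p = 0.0509). The BPQD value turned to 0.16 without BPQD replicate 3 (adjusted p = 0.613).

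AFF4 (ENSG00000072364; chromosome 5, 132875395 to 132963634), on which the super elongation complex is built, had 10.9, 11.6 and 10.8 FPKM in BPQD cells, 10.2, 11.3 and 10.2 FPKM in TiO2 cells, and 10.3, 9.75 and 11.1 FPKM in untreated cells. The groups overlapped, and neither comparison passed the test (0.09 ± 0.06 under BPQDs, adjusted p = 0.240, and 0.02 ± 0.06 under TiO2, adjusted p = 0.770). ELL2 (ENSG00000118985; chromosome 5, 95885098 to 95961851), its elongation factor, rose under both materials. It had 16.2, 16.4 and 16.8 FPKM in BPQD cells, 17.5, 18.4 and 18.0 FPKM in TiO2 cells, and 15.1, 14.5 and 14.7 FPKM in untreated cells. The 3 groups did not overlap. ELL2 rose by 0.15 ± 0.03 under BPQDs (adjusted p = 0.00362) and by 0.27 ± 0.03 under TiO2 (adjusted p = 0.000296), and BPQD cells lay below TiO2 cells (-0.12 ± 0.03, adjusted p = 0.0129), a call that was lost with values rescaled to TPM (-0.08, adjusted p = 0.0512).

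**Figure D2:**
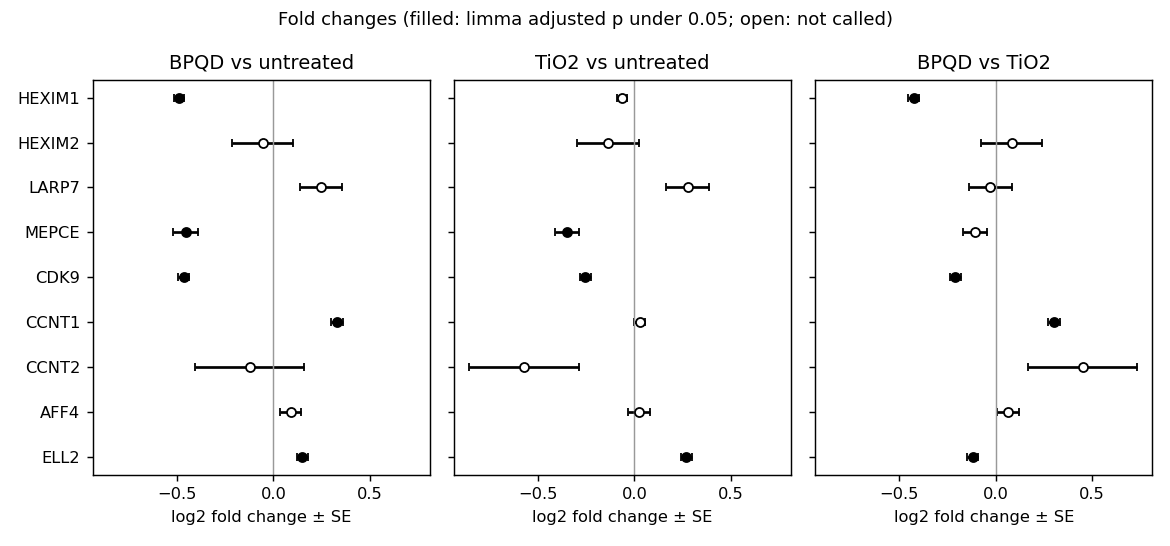
Log2 fold change ± SE from limma for the 9 genes in BPQD against untreated, TiO2 against untreated, and BPQD against TiO2 cells; filled points passed an adjusted p under 0.05. HEXIM1 and CCNT1 are called in the BPQD comparison and in BPQD against TiO2 but not in TiO2 against untreated cells.

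BPQD and TiO2 cells differed in 4 of the 9 genes, HEXIM1, CDK9 and ELL2 being lower and CCNT1 higher in BPQD cells. Over all tested genes 19.0% were called higher and 18.6% lower in that comparison. The libraries of the materials did not overlap in 4 of the 9 genes and in 51.1% of tested genes. The median log2 fold change was -0.03 for the 9 and 0.0032 for all tested genes.

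The order of the genes by level shifted with these changes. In BPQD cells it ran HEXIM1, ELL2, MEPCE, CDK9, CCNT1, AFF4, LARP7, CCNT2 and HEXIM2, in TiO2 cells HEXIM1, ELL2, MEPCE, CDK9, AFF4, CCNT1, LARP7, HEXIM2 and CCNT2, and in untreated cells HEXIM1, MEPCE, CDK9, ELL2, AFF4, CCNT1, LARP7, CCNT2 and HEXIM2. Neighbours in this order overlapped between CCNT2 and HEXIM2 in every group and between MEPCE and CDK9 in TiO2 cells, and otherwise did not. ELL2 thus stood above MEPCE and CDK9 in exposed cells and below them in untreated cells.

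Ratios between members within a library do not depend on how that library was scaled, and 4 of them were examined after the values had been seen. CCNT1 had 0.909, 0.891 and 0.904 times the FPKM of CDK9 in BPQD cells, 0.616, 0.622 and 0.601 times in TiO2 cells, and 0.505, 0.509 and 0.481 times in untreated cells. The groups did not overlap, and the ratio was 1.81-fold higher in BPQD than in untreated cells and 1.23-fold higher in TiO2 than in untreated cells. HEXIM1 to CDK9 was 2.25 ± 0.0519 in BPQD cells, 2.61 ± 0.131 in TiO2 cells and 2.26 ± 0.0477 in untreated cells, with overlap between BPQD and untreated cells. HEXIM1 to CCNT1 was 2.49 ± 0.0393 in BPQD cells, 4.25 ± 0.141 in TiO2 cells and 4.54 ± 0.0456 in untreated cells. MEPCE to LARP7 was 1.88 ± 0.313 in BPQD cells, 1.97 ± 0.132 in TiO2 cells and 3.18 ± 0.379 in untreated cells. With 3 libraries against 3, the two-sided exact permutation test cannot give less than p = 0.10. The exact test gave that value in 10 of 12 comparisons (0.12 after Benjamini-Hochberg adjustment over the 12), and more for HEXIM1 to CDK9 between BPQD and untreated cells (p = 0.60) and MEPCE to LARP7 between BPQD and TiO2 cells (p = 0.70).

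**Figure D3:**
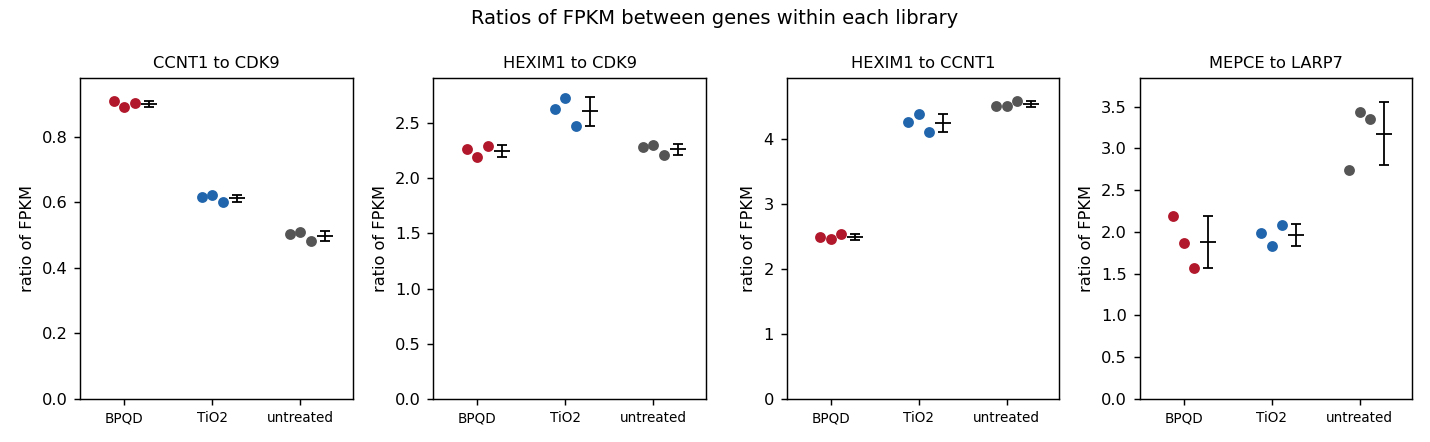
Ratios of FPKM within each library for CCNT1 to CDK9, HEXIM1 to CDK9, HEXIM1 to CCNT1 and MEPCE to LARP7; points are libraries and bars are mean ± SD. CCNT1 to CDK9 is 0.901 in BPQD, 0.613 in TiO2 and 0.498 in untreated cells, while HEXIM1 to CDK9 overlaps between BPQD and untreated cells.

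The genes whose levels ran most like those of 3 members over the 9 input libraries were looked up as a description, since the libraries form 3 groups and any gene with the same group pattern scores high. For HEXIM1 these were TCIRG1 (Pearson's r = 0.993), PRKCA (0.993) and ADI1 (0.992). For LARP7 they were AL606834 (0.967), LEPROTL1 (0.945) and ZNF92 (0.934). For CDK9 they were the keratin KRT18 (0.998), itself lower under BPQDs, STRA6 (0.996) and TFAP2C (0.994).

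The wider pathway around P-TEFb was read from lists of genes. All 4 hnRNP proteins known to bind 7SK rose under both materials, although HNRNPA2B1 lost its TiO2 call (0.14 ± 0.04, adjusted p = 0.0213) without untreated replicate 1 or 2, with no filter (adjusted p = 0.0640) and with only the 6 libraries compared (adjusted p = 0.0539). The shares of all tested genes called higher were 20.6% under BPQDs and 17.3% under TiO2. HNRNPA1 rose to 402 ± 6.71 FPKM in BPQD cells and 278 ± 5.88 FPKM in TiO2 cells, against 242 ± 7.92 FPKM in untreated cells (0.73 ± 0.03, adjusted p = 3.47e-06, and 0.20 ± 0.03, adjusted p = 0.00127). HNRNPA1 has many near-identical pseudogene copies, so its value is uncertain where counting splits reads among them. SYNCRIP rose by 0.52 ± 0.08 under BPQDs and 0.34 ± 0.08 under TiO2. The list median was 0.51 under BPQDs and 0.18 under TiO2.

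Of 7 genes that tether P-TEFb to chromatin or free it from 7SK, 4 rose and 1 fell under BPQDs, and 3 rose and 2 fell under TiO2, with list medians of 0.16 and 0.10. Of all tested genes 20.6% were called higher and 23.4% lower under BPQDs, and 17.3% and 20.5% under TiO2. DDX21, a helicase that releases P-TEFb from 7SK, had 136 ± 2.11 FPKM in BPQD cells and 118 ± 1.45 FPKM in TiO2 cells, against 90.9 ± 0.951 FPKM in untreated cells (0.57 ± 0.02, adjusted p = 2.26e-06, and 0.37 ± 0.02, adjusted p = 1.28e-05). SRSF2, a splicing factor with the same effect at promoters, rose by 0.53 ± 0.11 and 0.47 ± 0.11, and the phosphatase PPM1G fell by 0.16 ± 0.02 under BPQDs and by 0.15 ± 0.02 under TiO2. TRIM28, which tethers the 7SK complex to promoters, had 51.3 ± 1.24 FPKM in BPQD cells, 40.2 ± 1.06 FPKM in TiO2 cells and 51.5 ± 1.28 FPKM in untreated cells, and fell under TiO2 (-0.35 ± 0.03, adjusted p = 0.000127).

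Of the other genes of super elongation and related ELL complexes, 9 of 10 listed were tested. Under BPQDs 3 rose and 1 fell, under TiO2 1 rose and 2 fell, and the list medians were 0.09 and 0.06. These counts are near the shares over all tested genes, 20.6% higher and 23.4% lower under BPQDs and 17.3% and 20.5% under TiO2. MLLT1, the chromatin reader ENL of the super elongation complex, fell under both, with 12.9 ± 0.352 FPKM in BPQD cells and 11.7 ± 0.364 FPKM in TiO2 cells, against 16.03 ± 0.0530 FPKM in untreated cells (-0.29 ± 0.03, adjusted p = 0.000224, and -0.43 ± 0.03, adjusted p = 5.48e-05). The ELL partner EAF1 (0.25 ± 0.05) and ICE2 (0.30 ± 0.08), of the little elongation complex, rose under BPQDs. Under TiO2 ELL3 (-0.31 ± 0.09) fell and EAF2 (0.25 ± 0.08) rose, both near the filter of 1 FPKM. ELL3 averaged 1.36 FPKM in BPQD, 0.980 FPKM in TiO2 and 1.46 FPKM in untreated cells. It thus passed the filter on the mean of all libraries only through the BPQD and untreated ones. EAF2 averaged 1.36 FPKM in BPQD, 1.83 FPKM in TiO2 and 1.38 FPKM in untreated cells. The calls of ICE2, ELL3 and EAF2 were lost when 1 library was left out, for ICE2 without BPQD replicate 1 or 3 or untreated replicate 2, for ELL3 without any TiO2 replicate or untreated replicate 1 or 2, and for EAF2 when any 1 of the 6 libraries compared was left out. The EAF2 call was also lost with no filter, with a lower filter of 0.1 FPKM and with the replicate number as a block (adjusted p = 0.0733), and the ELL3 call with no filter and with quantile normalization.

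Of 6 genes of the pausing factors NELF and DSIF, 1 fell under BPQDs and 4 fell under TiO2, none rose, and the list medians were -0.04 and -0.11. The share of all tested genes called lower was 23.4% under BPQDs, near 1 of 6, and 20.5% under TiO2. NELFB fell under BPQDs (-0.14 ± 0.03, adjusted p = 0.00415) and under TiO2 (-0.13 ± 0.03, adjusted p = 0.00707). SUPT5H, the large subunit of DSIF, fell under TiO2 (-0.23 ± 0.03, adjusted p = 0.00135). NELFA fell under TiO2 too (-0.26 ± 0.07), a call lost without TiO2 replicate 1 or 2 or untreated replicate 1. NELFCD fell under TiO2 as well (-0.09 ± 0.02, adjusted p = 0.0263). That call was lost with no filter (adjusted p = 0.0523), TPM (0.0647), only the 6 libraries compared (0.0519) and the replicate number as a block (0.0636). It was also lost without TiO2 replicate 2 or 3 or untreated replicate 2 or 3. The TiO2 count was 2 without TiO2 replicate 2. All 6 values were below 0 in both comparisons with FPKM as deposited, but with TPM 4 of the 6 were above 0 under BPQDs.

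Of 7 genes of the PAF1 complex and SPT6, 4 rose and 1 fell under BPQDs and 2 rose under TiO2, with list medians of 0.15 and 0.07, where 20.6% of all tested genes were higher and 23.4% lower under BPQDs and 17.3% higher under TiO2. LEO1 rose under BPQDs (0.27 ± 0.05) and TiO2 (0.25 ± 0.05), as did CTR9 (0.17 ± 0.03 and 0.25 ± 0.03). RTF1 rose (0.18 ± 0.03) and PAF1 itself fell (-0.16 ± 0.02) under BPQDs. Among 9 other transcription kinases and cyclins, 1 rose under BPQDs (3 with TPM) and 2 under TiO2, and none fell, which for the rises is below the 20.6% of all tested genes under BPQDs and near the 17.3% under TiO2. The Mediator kinase CDK8 rose by 0.13 ± 0.04 under BPQDs and 0.28 ± 0.04 under TiO2, and CDK7 of TFIIH by 0.23 ± 0.06 under TiO2. The calls of CDK8 under BPQDs and of CDK7 were lost when any of 4 single libraries was left out, which were BPQD replicates 1 and 3 and untreated replicates 1 and 3 for CDK8, and TiO2 replicates 1 and 2 and untreated replicates 1 and 2 for CDK7. Both calls were also lost with no filter (adjusted p = 0.0501 for CDK8 and 0.0595 for CDK7), and that of CDK8 with only the 6 libraries compared (0.0530) and with the replicate number as a block (0.0595). The list medians were 0.08 and 0.23.

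**Figure D4:**
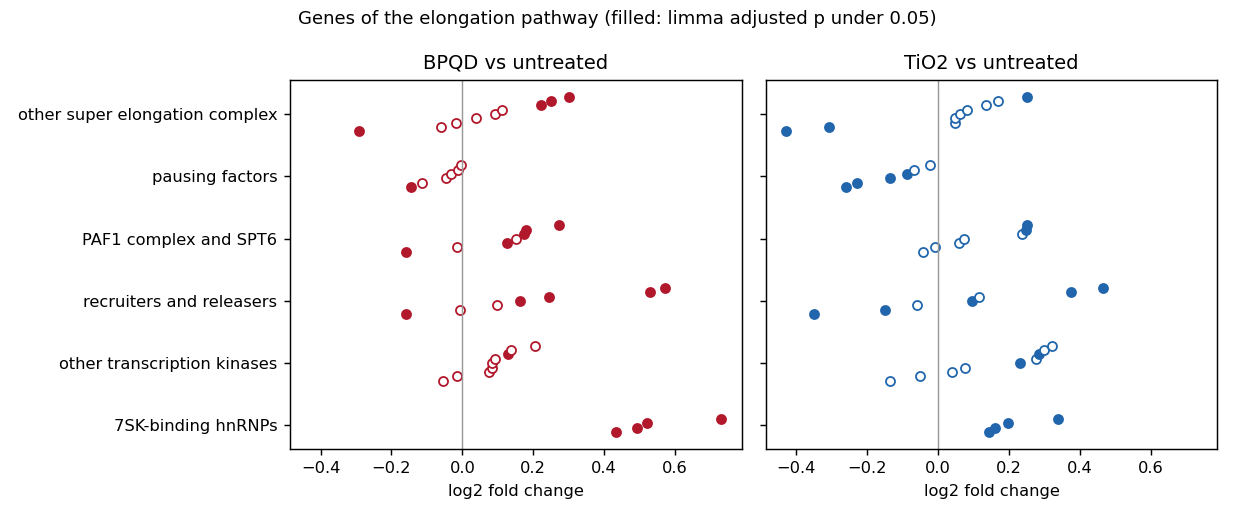
Log2 fold change of each tested gene of 6 pathway lists in BPQD against untreated cells (left) and TiO2 against untreated cells (right); filled points passed a limma adjusted p under 0.05. All 4 hnRNPs lie above 0 in both panels, and all 6 pausing factors lie below 0 with FPKM as deposited, while with TPM 4 of them are above 0 under BPQDs.

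The methylation of these transcripts was read from the authors' deposited tables of m6A peaks, which give each peak's fold change and p as the authors computed them. At least 1 peak was listed for 7 of the 9 genes in either table, and none for HEXIM2 and MEPCE. A gene with a listed peak was found for 5 of the 9 under BPQDs and 6 under TiO2, beside 53.6% and 50.3% of all tested genes. Under BPQDs the authors' p was under 0.05 for all 6 peaks, 4 higher and 2 lower, where 37.7% of all peaks of that table were higher and 27.1% lower. Under TiO2 6 of 8 were past it, all higher, where 40.3% of all peaks were higher and 23.8% lower. The changes were small: the median absolute log2 fold change in the authors' deposited tables was 0.17 for the 6 peaks and 0.23 for the 8, against 0.42 and 0.34 over all peaks.

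HEXIM1, an intronless gene, had a single peak, annotated to the 5′ UTR, with the same ends in both tables (chromosome 17, 45148502 to 45150631). It covers 2130 of the 3600 bases of the gene from its start, so it reaches beyond a 5′ UTR. In the authors' deposited table its log2 fold change was 0.07 under BPQDs (p = 3.63e-05) and 0.20 under TiO2 (p = 7.94e-35). In the authors' deposited table the TiO2 value, a 1.15-fold change, has the smallest p among the 14 entries of the 9 genes.

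CDK9 had a pair of peaks under BPQDs that went opposite ways in the authors' deposited table. The one annotated to the 5′ UTR (127785949 to 127786219) was lower there, at -0.39 in the authors' deposited table (p = 0.0200, FDR 0.0891). The one annotated to the 3′ UTR (127788653 to 127790787), which runs to the end of the gene, was higher, at 0.18 in the authors' deposited table (p = 1.91e-06). Under TiO2 the authors' deposited table lists only the 3′ peak, at 0.10 (p = 0.00178).

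The cyclin genes carried higher peaks at their 3′ ends in the authors' deposited tables. CCNT1 had a 3′ peak from 48692312 that was 0.14 higher under BPQDs (p = 4.90e-06) and 0.16 higher under TiO2 (p = 2.40e-07) in the authors' deposited tables, and under TiO2 a 5′ peak (48716580 to 48716819) at 0.27 (p = 0.0468, FDR 0.178). CCNT2 had a 3′ peak (134953198 to 134955057) at 0.16 under BPQDs (p = 0.000282) and 0.27 under TiO2 (p = 1.91e-09) in the authors' deposited tables. Its short second peak under TiO2 (134957334 to 134957394) was listed at 0.57 in the authors' deposited table, with p = 0.284. The CCNT2 values sit beside an input level that differed widely among replicates.

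LARP7 had a single short peak in the authors' deposited table for BPQDs (112647209 to 112647358, 150 bases), annotated to a 3′ UTR although it lies near the middle of the gene, and it was lower at -0.33 (p = 0.000479). AFF4 and ELL2 were listed under TiO2 only, with wide peaks of 31429 and 18826 bases that start at the 5′ end and take in introns. The authors' deposited values were 0.19 for AFF4 (p = 6.61e-05) and 0.27 for ELL2 (p = 0.0912). A total of 4 peaks overlapped between the lists by at least 1 base in the same gene, those of HEXIM1, CCNT2 and the 3′ peaks of CDK9 and CCNT1, which is 66.7% of the 6 under BPQDs and 50% of the 8 under TiO2. All 4 were listed as higher in both tables, which share their untreated libraries. Overlap over all peaks was not counted, and 37.7% of all peaks under BPQDs and 40.3% under TiO2 were higher at an authors' p under 0.05.

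**Figure D5:**
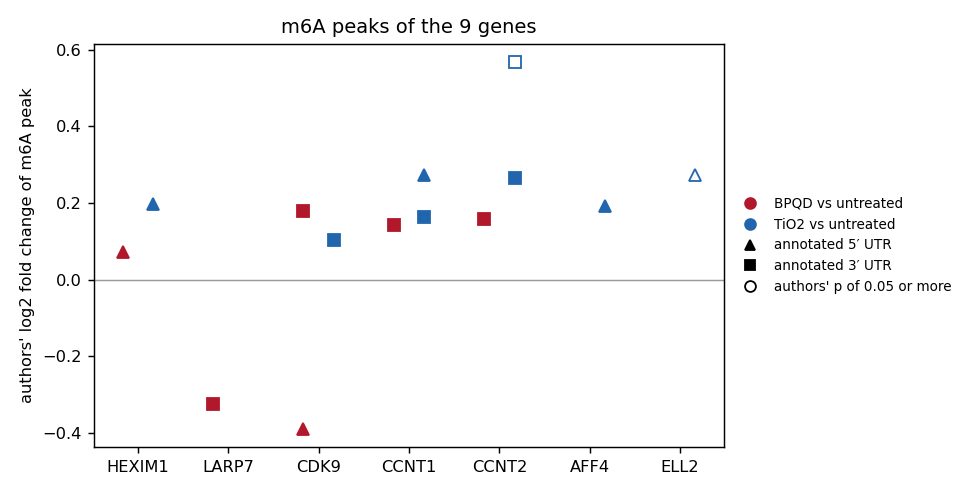
Authors' log2 fold change of each m6A peak of the 9 genes, red for BPQDs and blue for TiO2 against untreated cells; triangles are annotated to the 5′ UTR, squares to the 3′ UTR, and open symbols have an authors' p of 0.05 or more. Below 0 are only the LARP7 peak and the 5′ peak of CDK9, both under BPQDs.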

How the data were processed

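The study has 18 sequenced libraries, 9 of input RNA and 9 after m6A immunoprecipitation. The authors deposited FPKM for 36576 genes in the input libraries, per the file headers, and for each material a table of peaks with a log2 fold change, a p-value and a log10 FDR (a score here), made by steps not given in the sources used here. HISAT2 and StringTie 1.3.0 are named, per the submitters' processing notes, which list the mouse build mm10. All 24557 symbols matched to RefSeq lay on the same human GRCh38 chromosome and 87.8% started within 1000 bases, so coordinates are read as GRCh38. The peak tables' 12 other FPKM columns were not used.

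Groups were taken from titles. limma 3.58.1 in R 4.3.3 was fitted to log2(FPKM + 1) of all 9 input libraries (trend, two-sided, 3 contrasts). Only this fit, for BPQD against untreated cells, was tested on simulated data. Repeated peak entries, 1 and 5, were counted once. Python 3.11.15, scipy 1.17.1 and matplotlib 3.10.9 were used. The members and lists were chosen with earlier results of these data known. Genes named by rule were the 9 members, RN7SK, up to 2 called rises and 2 falls per list and comparison, and the 3 genes most like each of HEXIM1, LARP7 and CDK9. Cell type markers were named beside them, and HNRNPA2B1 and NELFCD after their values were seen. A gene of the list of recruiters and releasers is not reported here. Alternatives were other pseudocounts, filters and scalings, the 6 libraries compared, a replicate block and leaving out each library, and for peaks stricter thresholds.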

Additional observations from a re-analysis of the deposited data

Results flagged for a closer look

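The effect of BPQDs and that of TiO2 differed by limma's direct comparison of exposed cells in 20 genes, and 4 of the 20 are members. The count ran over the 9 members, RN7SK, which was not called, and the pathway genes that the naming rule picks. The rule picks some of the pathway genes because they were called in this comparison. The count is thus partly fixed beforehand and cannot be set against a share over all genes. Over all tested genes 19.0% were called higher and 18.6% lower in BPQD than in TiO2 cells. The difference (BPQD minus TiO2, log2) was -0.43 for HEXIM1, -0.21 for CDK9, 0.30 for CCNT1 and -0.12 for ELL2. Among genes that recruit or release P-TEFb it was 0.34 for TRIM28, 0.22 for SRSF1 and 0.20 for DDX21. Among hnRNPs it was 0.53 for HNRNPA1 and 0.33 for HNRNPR, and HNRNPA2B1, which the rule does not pick, had 0.29 (adjusted p = 0.000855). In the super elongation list it was 0.19 for EAF1, 0.14 for MLLT1, -0.27 for EAF2 and 0.17 for ICE1. Among pausing factors it was 0.25 for NELFA and 0.22 for SUPT5H, and in the PAF1 list 0.12 for RTF1, -0.15 for PAF1 and 0.17 for SUPT6H. Among kinases and cyclins it was -0.15 for CDK8 and 0.22 for CCNK. Some of these calls were lost when 1 library was left out: EAF1 without BPQD replicate 1 or 3 or TiO2 replicate 1, EAF2 without TiO2 replicate 2 or 3, NELFA without replicate 1 or 2 of either material, RTF1 without any BPQD replicate, and CCNK without BPQD replicate 1 or 3 or TiO2 replicate 2 or 3. That of EAF2 was also lost with no filter (adjusted p = 0.0660), with only the 6 libraries compared (0.0625) and with the replicate number as a block (0.0608), and that of NELFA with the block (0.0520). Genes picked for a pattern like that of a member, and cell type markers, were not counted. The materials were given at different doses.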

How the results depend on the processing

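The count of the 9 genes called stayed within 1.5 times its value (5 under BPQDs, 3 under TiO2, 4 between BPQD and TiO2 cells) in each alternative run (up to 6 under BPQDs and 4 under TiO2, down to 3 between BPQD and TiO2 cells), as did the counts over all genes. Of 216 fold changes of the 9 under other pseudocounts, filters, scalings, fits or the block, 214 kept their call, 1 was lost and 1 gained, and of 243 with a library left out 239 kept it and 4 were gained. No called value changed sign. With TPM 58.3% of called genes were higher under BPQDs, against 46.9% as deposited, and the median of all genes shifted by 0.05. Between BPQD and TiO2 cells the share higher was 60.5% with TPM, 61.5% with no filter and 58.2% with a mean of at least 0.1 FPKM, against 50.5% as deposited. The labels do not say whether replicate numbers pair the samples. Deviations of libraries with the same number correlated at -0.0830 to 0.0733, beside -0.0788 to 0.0842 with different numbers, which cannot exclude pairing. The replicate block left 5, 3 and 4 of the 9 called, with 4996, 4160 and 4150 calls over all genes. At an authors' p under 0.01, or an FDR under 0.05, 5 peaks of the 9 genes remained in each table, and requiring that overlaps cover at least 50% of each peak left 4 shared. The shares of all peaks past these stricter thresholds were not counted, so the 5 cannot be set against a background. Read depth is unknown. Values of HEXIM2, CCNT2, AFF4 and LARP7 that did not pass the test changed sign in some settings.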
